A study of Homo sapiens with 4 samples.

Results

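The kinesins are the motor proteins that walk along or take apart microtubules, and their 42 genes in these data were chosen by name alone: every gene whose symbol is KIF or KIFC followed by a number and, where present, the letter A, B or C. They are 42 of the 20137 genes in the deposited tables. RNA sequencing gave their levels in MDA-MB-231 cells, a line of triple-negative breast cancer kept in L-15 medium with serum, in 2 libraries with a knockdown of AURKA, titled shA, and in 2 control libraries, titled shC. The targeted gene encodes Aurora A, a kinase of mitosis, and the title of the series asks which genes it regulates at the level of transcription. The series text calls the controls mock-transfected and the replicates biological; the labels give neither the hairpin sequence nor the time of harvest, and the p-values measure only the spread between these samples.

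A kinesin couples the splitting of ATP to movement along a microtubule through a conserved motor domain, and its tail decides what is moved. Mitotic kinesins build the spindle, move chromosomes and form the midbody, and their genes are expressed mostly in G2 and mitosis. Transport kinesins carry organelles, vesicles and RNA in every phase, and some work in cilia or in neurons only. In dividing cells the Aurora kinases phosphorylate several of the mitotic kinesins, among them KIF2C and KIF11. By these roles 16 members were grouped as mitotic kinesins and 26 as transport, ciliary and other kinesins.

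The promoters shown first are those of KIF2C and KIF3B, the members the results turn on, and of KIF11 and KIF23, mitotic kinesins to compare them with. Mitotic genes often carry a cell cycle homology region, here searched as the words TTTGAA and TTCGAA, and a CCAAT box, which binds the factor NF-Y. Both strands were searched in the 250 bases before and the 50 bases after each start in the promoter table of RefSeq (GRCh38.p14), in which 16 mitotic and 18 other members matched by symbol. The lines show the last 150 bases before the start and the first 50 after it, 5′ to 3′ on the gene's strand, with the searched words in capitals; KIF2C lies at chr1:44739687-44739886, KIF11 at chr10:92592980-92593179, KIF23 at chr15:69414199-69414398 and KIF3B at chr20:32277501-32277700, all on the plus strand.
KIF2C: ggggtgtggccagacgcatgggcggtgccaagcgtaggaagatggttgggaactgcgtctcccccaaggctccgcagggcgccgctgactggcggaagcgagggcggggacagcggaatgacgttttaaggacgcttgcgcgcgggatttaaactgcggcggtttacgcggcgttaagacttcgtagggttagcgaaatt
KIF11: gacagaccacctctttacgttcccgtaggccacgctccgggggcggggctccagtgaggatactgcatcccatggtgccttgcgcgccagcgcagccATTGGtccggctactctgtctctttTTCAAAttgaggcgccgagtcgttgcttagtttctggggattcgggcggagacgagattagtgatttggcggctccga
KIF23: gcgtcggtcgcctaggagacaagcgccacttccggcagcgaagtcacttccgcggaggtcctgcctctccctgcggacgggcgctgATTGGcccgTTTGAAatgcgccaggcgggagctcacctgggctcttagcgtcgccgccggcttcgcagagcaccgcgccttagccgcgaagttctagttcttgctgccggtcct
KIF3B: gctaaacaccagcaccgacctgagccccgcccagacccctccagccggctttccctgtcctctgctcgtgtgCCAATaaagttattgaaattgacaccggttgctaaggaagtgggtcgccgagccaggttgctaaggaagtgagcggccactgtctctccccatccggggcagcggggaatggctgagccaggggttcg

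KIF11 and KIF23 hold both a CCAAT box and TTTGAA, here as the reverse complements ATTGG and, for KIF11, TTCAAA. KIF3B, a transport kinesin, holds CCAAT only, and the window of KIF2C holds none of the 3 words. The table has more than 1 promoter for some genes, and a gene was counted where any of its promoters holds the word. TTTGAA was found for 10 of 16 mitotic kinesin genes (62.5%), for 1 of 18 of the others (5.56%), which is KIF5B, and for 18.2% of all 27305 genes of the table. CCAAT was found for 12 of 16 (75%), for 6 of 18 (33.3%) and for 39.7% of all genes. At least 1 of the 3 words was found for 13 of 16 mitotic kinesin genes (81.2%) and for 6 of 18 of the others (33.3%). Of all genes of the table, 50.2% hold at least 1 of the 3. Of the genes tested here, 13.9% hold TTTGAA, 43.7% CCAAT and 50.7% at least 1 of the 3. Counted by single promoters, 15.2% of 35116 hold TTTGAA, 34.6% CCAAT and 44.6% any of the 3. The 3 mitotic kinesins without any are KIF2A, KIF2B and KIF2C, microtubule depolymerases of the kinesin-13 family; KIF24, of the same family, holds TTCGAA and CCAAT. A word is a match of letters and not a shown binding site, and its absence says only that these letters are not in this window.

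The libraries were checked before the members were compared. AURKA had 22.3 and 23.7 FPKM (sequenced fragments relative to transcript length and library depth) in the knockdown libraries, against 124 and 99.1 FPKM in the controls. It was lower in both replicates, as labelled. Summed FPKM were 718791 to 761447 per library, and depth estimated from the size of single-fragment steps was 21200000 and 27700000 fragments in the knockdown and 17400000 and 24300000 in the controls. A transcript of 1 kilobase at 1 FPKM thus rests on about 17.4 to 27.7 fragments. The line's mesenchymal markers were high (VIM 1701 to 2068 FPKM, CD44 212 to 233 FPKM), as was EGFR (75.3 to 105 FPKM). Of the epithelial and luminal markers, CDH1, ESR1 and PGR were at 0.271 FPKM or lower, while ERBB2 had 16.5 to 20.2 FPKM and EPCAM 2.49 to 3.30 FPKM. The leukocyte marker PTPRC reached 0.0120 FPKM, and the collagen gene COL1A1 had 1.04 to 3.61 FPKM. Of the neuronal markers, RBFOX3 and SNAP25 reached 0.242 and 0.132 FPKM at most, and TUBB3 had 23.6 to 25.5 FPKM under 1 of its gene IDs and up to 0.0791 FPKM under the other.

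The tables of the same replicate number share row order, which differs between the numbers. Between control replicate 1 and control replicate 2, 1707 of the 81412 transcripts in common also differ in locus name. Each number holds 1 library of each group. The labels do not say whether a number marks a culture, a sequencing batch or a round of the authors' processing. Differences are given within each replicate number too, and the adjusted p comes from limma both without and with a term for the replicate number (two-sided, Benjamini-Hochberg adjusted over all 12136 tested genes). All differences are knockdown minus control on the log2(FPKM + 1) scale, which understates the change of low genes. Each standard error given is that of the fit without the replicate term.

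Of the 42 members, 31 reached 1 FPKM in at least 2 libraries and were tested, 14 mitotic and 17 others. The 11 that did not were listed at 0 or at low values. KIF2B, a depolymerase related to KIF2C, and KIF19, a motor of cilia, were listed at 0 in all 4 libraries. KIF1A, which carries synaptic vesicle precursors, KIF5A, the neuronal heavy chain of conventional kinesin, KIF12 and KIF26A stayed under 0.1 FPKM, as did KIF4B, a retrogene nearly identical to KIF4A whose reads cannot be told apart from it with certainty. KIF17, a motor of dendrites and cilia, reached 0.185 FPKM, KIF26B 0.312 FPKM and KIF6 0.912 FPKM. KIF25 stood at 0.745 and 0.123 FPKM in the knockdown and at 1.37 and 0.158 FPKM in the controls, so it was high in replicate 1 of both groups.

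The highest kinesin was KIF5B, the heavy chain of conventional kinesin, which carries mitochondria, lysosomes and RNA. It had 119 and 138 FPKM in the knockdown, against 95.1 and 122 FPKM in the controls. KIF23, the motor of the centralspindlin complex that bundles the midzone, was next at 75.6 and 78.7 FPKM in the knockdown and 78.4 and 73.4 FPKM in the controls. Close to it stood KIFC3, a minus-end motor of cell junctions, at 80.7 and 71.6 against 71.6 and 63.6 FPKM, and its level could not be ordered against KIF23, since their libraries overlap. KIF5B and KIFC3 together made up 52.7% and 56.0% of the summed FPKM of the transport, ciliary and other kinesins in the knockdown and 46.1% and 52.4% in the controls. The mitotic kinesins were more even: 12 of the 14 tested averaged between 24.8 and 76.5 FPKM over the 4 libraries, with KIF15 (12.9 FPKM) and KIF24 (3.44 FPKM), a depolymerase of the centriole, below. KIF24, KIF23 and KIFC3 share their loci in the files with UBAP1, PAQR5 and CTD-2600O9.1, so their values are uncertain.

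**Figure D1:**
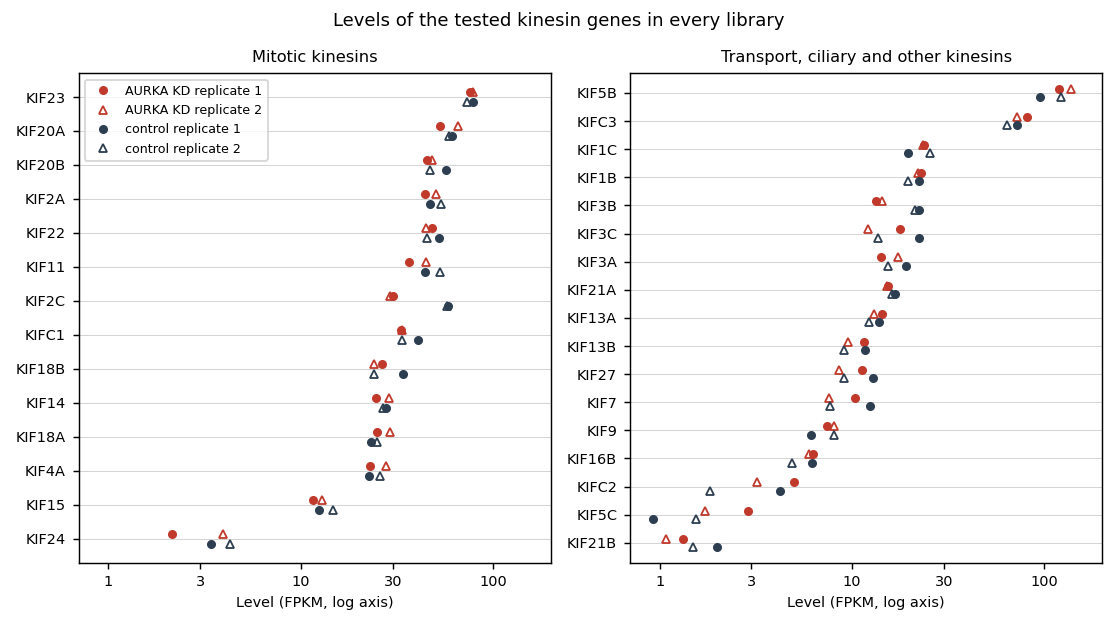
FPKM (log axis) of the 31 tested kinesin genes in each library, with AURKA knockdown in red above control in dark blue, circles for replicate 1 and triangles for replicate 2. The knockdown libraries of KIF2C, at 30.1 and 28.99 FPKM, and of KIF3B, at 13.4 and 14.4 FPKM, stand apart from their controls, and for most other genes the groups overlap.

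Set against the control cells, 0 kinesins and 0% of all tested genes were called by limma without the replicate term, at a smallest adjusted p of 0.0581 over all genes; 2 members, KIF2C and KIF3B, and 773 genes in all had an unadjusted p under 0.05. With the replicate term the same 2 kinesins were called lower and 0 higher. Over all genes that fit called 3.44% of those tested, 1.9% lower and 1.53% higher. AURKA itself, at a log2 difference of -2.22, had a limma adjusted p of 0.0819 without and 0.000696 with the replicate term. The fit without that term thus did not call even the targeted gene. For 25 of the 31 members (80.6%) the difference was under 1.2-fold, against 76.5% of all tested genes. The 2 groups did not overlap in 5 members (4 lower and 1 higher), and in 35.9% of all tested genes. The sign was the same in both replicates for 21 of the 31 members and for 67% of all tested genes.

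KIF2C, also called MCAK, takes microtubules apart at their ends and corrects wrong attachments at the kinetochore (ENSG00000142945, GRCh37 chromosome 1, 45205489 to 45233439). Its values were 30.1 and 28.99 FPKM in the knockdown, against 58.0 and 57.6 FPKM in the controls (29.6 ± 0.807 and 57.8 ± 0.271, SD, n = 2 each). Both knockdown libraries lay far below both controls, 1.95-fold on average, and the replicates of each group were close together. The log2 difference was -0.94 with a standard error of 0.12, at -0.92 in replicate 1 and -0.97 in replicate 2 (limma adjusted p 0.297 without and 0.00468 with the replicate term). Of all 12136 tested genes, 52 (0.428%) had a difference as low or lower. In bulk RNA, fewer cells in G2 or mitosis and less KIF2C RNA in each such cell cannot be told apart.

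The other mitotic kinesins give the level against which this stands. Relative to the median of the other 13 tested, KIF2C was at 0.909 and 0.862 in the knockdown and at 1.43 and 1.72 in the controls. It made up 6.29% and 5.56% of the summed FPKM of mitotic kinesins in the knockdown, against 10.3% and 10.6% in the controls. Without KIF2C that sum was 448 and 493 FPKM in the knockdown and 503 and 485 FPKM in the controls, so the groups overlapped. The ratio of KIF2C to KIF2A, its relative that works at the spindle poles, was 0.680 and 0.577 in the knockdown and 1.24 and 1.08 in the controls. KIF2A itself had 44.3 and 50.2 FPKM against 46.6 and 53.2 FPKM (log2 -0.08, standard error 0.14).

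Of the 14 tested mitotic kinesins, 11 (78.6%) had a difference below 0 and 3 above, against 47.7% of all tested genes below 0. Their median was -0.11, at -0.19 in replicate 1 and 0.01 in replicate 2, and over all tested genes the median was 0.01. Among these kinesins 1 was called lower (KIF2C) and 0 higher with the replicate term. Below 0 in both replicates were 6, and above 0 in both were 2. Over all 12136 tested genes these counts were 3847 and 4286. The median was nearer 0 with a library of replicate 1 left out, at -0.0088 without control replicate 1 and -0.029 without knockdown replicate 1.

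KIF11, or Eg5, the plus-end motor that pushes the spindle poles apart, did not pass. It had 36.4 and 44.8 FPKM in the knockdown, against 44.3 and 52.8 FPKM in the controls. The values were higher in replicate 2 of either group, and the groups overlapped. The log2 difference was -0.26 with a standard error of 0.16, and -0.28 and -0.23 within the replicates (limma adjusted p 0.856 without and 0.138 with the replicate term). KIF15, which shares the task of KIF11, was at 11.6 and 12.9 against 12.5 and 14.7 FPKM. The ratio of KIF2C to KIF11 was 0.827 and 0.647 in the knockdown and 1.31 and 1.09 in the controls.

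The motors that act on chromosomes and at the plus ends did not pass. KIF18A, which dampens chromosome movements at the metaphase plate, had 24.9 and 29.1 FPKM in the knockdown and 23.0 and 25.0 FPKM in the controls (log2 0.16, standard error 0.14); it shares its locus in the files with METTL15, so its value is uncertain. KIF18B, which with KIF2C shortens astral microtubules, had 26.5 and 24.0 FPKM against 33.8 and 24.0 FPKM (log2 -0.17, standard error 0.19). Control replicate 1 alone was high, and the difference was -0.34 in replicate 1 and 0.001 in replicate 2. KIF4A, a chromokinesin that organises the midzone with PRC1, had 22.9 and 27.6 FPKM against 22.7 and 25.9 FPKM (log2 0.05, standard error 0.16). KIF22, a chromokinesin of the chromosome arms, had 48.0 and 44.8 against 51.9 and 45.4 FPKM. In all 4 libraries KIF4A was at a small and similar part of the level of PRC1, with a ratio of 0.160 and 0.159 in the knockdown and 0.148 and 0.154 in the controls.

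The motors of cytokinesis and the minus-end motor KIFC1 did not pass either. KIF23 was at 0.535 and 0.517 of its partner RACGAP1 in the knockdown and at 0.519 and 0.513 in the controls, with a log2 difference of 0.02 (standard error 0.11). The 4 ratios were nearly equal. KIF20A, which brings the chromosomal passenger complex to the midzone, had 52.9 and 65.9 FPKM in the knockdown and 61.3 and 58.6 FPKM in the controls. Its log2 difference was -0.02 with a standard error of 0.15, at -0.21 in replicate 1 and 0.17 in replicate 2. The libraries of either group overlapped. KIF14, the partner of citron kinase at the midbody, had 24.7 and 28.7 FPKM against 27.8 and 26.8 FPKM (log2 -0.04, standard error 0.14). KIFC1, which clusters extra centrosomes in cancer cells, had 33.1 and 33.6 FPKM against 40.5 and 33.4 FPKM (log2 -0.14, standard error 0.14). KIF20B, which acts at abscission, showed the same form, with 45.5 and 48.2 FPKM against 56.7 and 47.1 FPKM: control replicate 1 was the high library for KIFC1, KIF18B and KIF20B. For KIF2A, KIF4A, KIF14, KIF18A, KIF18B, KIF20A, KIF23 and KIFC1 the limma adjusted p was 0.906 (KIF18A) to 0.996 (KIF20A) without and 0.346 (KIF18A) to 0.937 (KIF20A) with the replicate term. KIF23 and KIF20A share their loci in the files with PAQR5 and with BRD8 and CDC23, so their values and ratios are uncertain.

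**Figure D2:**
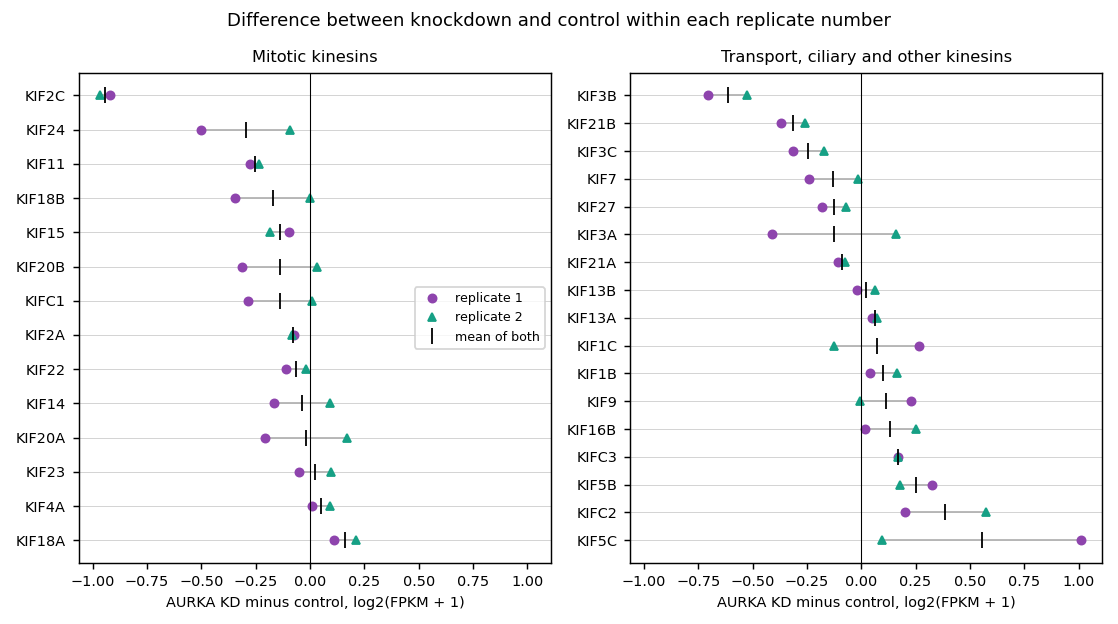
Difference of AURKA knockdown minus control on the log2(FPKM + 1) scale for the 31 tested kinesin genes, with circles for replicate 1, triangles for replicate 2 and a bar for their mean. KIF2C (-0.92 and -0.97) and KIF3B (-0.70 and -0.53) lie farthest below 0 in both replicates, and KIF5C (1.01 and 0.10) rests on replicate 1.

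Of the 17 tested transport, ciliary and other kinesins, 7 (41.2%) had a difference below 0 and 10 above, against 47.7% of all tested genes below 0. Their median was 0.06, at 0.02 in replicate 1 and 0.06 in replicate 2. With the replicate term 1 was called lower (KIF3B) and 0 higher. The summed FPKM of all 26 members of this group was 379 and 374 in the knockdown and 362 and 354 in the controls. KIF5B and KIFC3 alone made up 52.7% and 56.0% of that sum in the knockdown and 46.1% and 52.4% in the controls. The higher sum thus does not describe the group as a whole.

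KIF3B is 1 of the motor subunits of kinesin-2, which pairs with KIF3A and the adaptor KIFAP3 and carries cargo into cilia and along microtubules in the cell body (ENSG00000101350, GRCh37 chromosome 20, 30865466 to 30922814). Its values were 13.4 and 14.4 FPKM in the knockdown, against 22.4 and 21.2 FPKM in the controls (13.9 ± 0.725 and 21.8 ± 0.874, SD, n = 2 each). The groups stood apart, 1.57-fold lower in the knockdown on average. The log2 difference was -0.62 with a standard error of 0.13, at -0.70 in replicate 1 and -0.53 in replicate 2 (limma adjusted p 0.504 without and 0.0315 with the replicate term). Among all tested genes, 232 (1.91%) had a difference as low or lower.

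The partners of KIF3B did not pass. KIF3A, the shared subunit, had 14.1 and 17.3 FPKM in the knockdown and 19.1 and 15.3 FPKM in the controls, and KIFAP3 had 12.3 and 10.8 FPKM against 10.997 and 10.6 FPKM. The ratio of KIF3B to KIF3A was 0.949 and 0.834 in the knockdown and 1.18 and 1.38 in the controls. KIF3B was thus below KIF3A in both knockdown libraries and above it in both controls. KIF3C, another kinesin-2 subunit, had 17.8 and 12.1 FPKM against 22.3 and 13.7 FPKM, and its ratio to KIF3A, at 1.26 and 0.699 against 1.17 and 0.896, overlapped between the groups. KIF3B made up 29.6% and 32.9% of the summed FPKM of the 3 KIF3 genes in the knockdown and 35.1% and 42.2% in the controls.

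KIF5B was 0.25 higher on the log2 scale with a standard error of 0.16, at 0.32 in replicate 1 and 0.18 in replicate 2, and did not pass (limma adjusted p 0.857 without and 0.141 with the replicate term). Its light chain KLC1, which links it to cargo, had 72.0 and 70.3 FPKM in the knockdown and 77.6 and 62.8 FPKM in the controls. KIF5C, a neuronal heavy chain, stood at 2.87 and 1.72 FPKM against 0.921 and 1.55 FPKM. The groups did not overlap, and most of the gap lay in replicate 1. KIF21B, a motor that slows microtubule growth, was the only other member with a difference over 0.25 in the same direction in both replicates. It had 1.32 and 1.08 FPKM in the knockdown, against 2.00 and 1.495 FPKM in the controls (log2 -0.32, standard error 0.23, limma adjusted p 0.877 without and 0.321 with the replicate term). Its relative KIF21A had 15.4 and 15.2 FPKM against 16.6 and 16.05 FPKM.

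The kinesin-3 motors of vesicles and endosomes did not pass. KIF1C, which moves secretory vesicles and integrins, had 23.7 and 23.3 FPKM in the knockdown and 19.5 and 25.5 FPKM in the controls (log2 0.07, standard error 0.17, limma adjusted p 0.977 without and 0.766 with the replicate term). Its controls differed more from each other than the groups did. KIF1B, a carrier of mitochondria and synaptic vesicle precursors, had 22.9 and 22.0 FPKM against 22.2 and 19.5 FPKM. KIF13A, a motor of recycling endosomes, had 14.3 and 13.0 FPKM against 13.8 and 12.3 FPKM. For all 3 genes the groups overlapped, as they did for KIF16B, which moves early endosomes and had 6.26 and 6.01 FPKM against 6.18 and 4.88 FPKM. The ratio of KIF13A to its paralog KIF13B was 1.25 and 1.35 in the knockdown and 1.19 and 1.34 in the controls. KIF7, the kinesin of Hedgehog signalling in cilia, had 10.4 and 7.595 FPKM against 12.5 and 7.68 FPKM, and its paralog KIF27 11.3 and 8.57 FPKM against 12.9 and 9.05 FPKM. Both were higher in replicate 1 of either group. KIF7, KIF9 (6.14 to 8.09 FPKM), KIFC2 (1.84 to 4.98 FPKM) and KIFC3 share loci in the files with TICRR, KLHL18, FOXH1 and CTD-2600O9.1, and their values are uncertain.

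**Figure D3:**
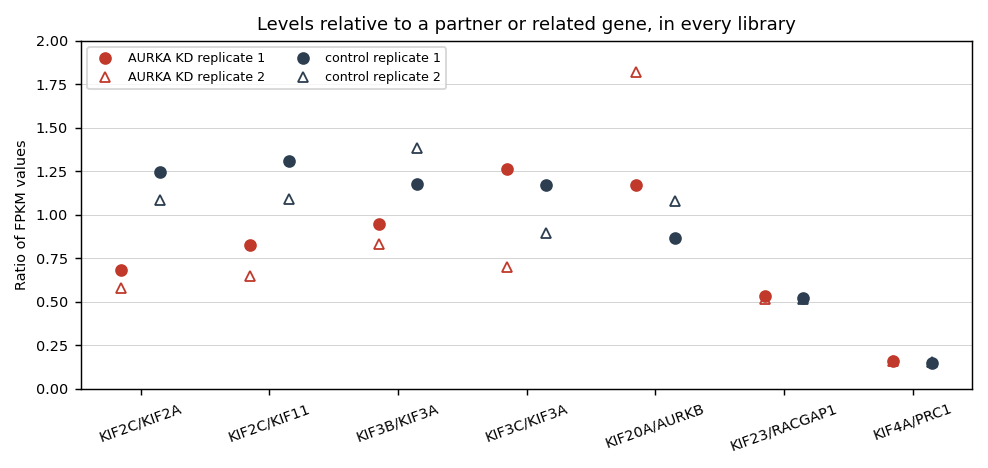
Ratio of FPKM values of a kinesin to a related gene or partner in each library, with AURKA knockdown in red left of control in dark blue, circles for replicate 1 and triangles for replicate 2. KIF2C lies below KIF2A in the knockdown (0.680 and 0.577, against 1.24 and 1.08), KIF3B below KIF3A (0.949 and 0.834, against 1.18 and 1.38), and KIF23 to RACGAP1 lies between 0.513 and 0.535 in every library.

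The files list 183 transcripts of the 42 genes, and the share of overlapping transcripts is an estimate of the authors' program. For KIF2C the leading transcript was ENST00000372224, which had 17.4 and 16.4 FPKM in the knockdown, against 48.8 and 34.0 FPKM in the controls. It was 2.45-fold lower on average, and its gap came to 86.8% of the gene's difference in mean FPKM, at 113% in replicate 1 and 61.7% in replicate 2. The other 6 transcripts together had 12.7 and 12.6 FPKM in the knockdown and 9.22 and 23.6 FPKM in the controls: higher in the knockdown in replicate 1, and lower in replicate 2. The gene total was steadier between the controls than its split among transcripts, since control replicate 1 held 84.1% of it in ENST00000372224 and control replicate 2 59.1%. KIF3B was carried by ENST00000375712, at 12.3 and 13.2 FPKM against 21.8 and 21.2 FPKM, and its second transcript had 1.06 and 1.196 FPKM against 0.649 and 0 FPKM.

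KIF23, KIFC3, KIF20B and KIF2A, chosen after their values were seen, show how other members divide among transcripts. ENST00000260363 of KIF23 had 43.7 and 33.6 FPKM in the knockdown and 52.2 and 29.1 FPKM in the controls, high in replicate 1 of either group. ENST00000445690, 1 of 25 transcripts of KIFC3, had 56.8 and 45.5 FPKM against 54.2 and 40.8 FPKM. ENST00000260753 of KIF20B had 36.1 and 40.8 FPKM against 38.0 and 40.4 FPKM, and control replicate 1, the high library for the gene, was not high in it. ENST00000447580 of KIF20B had 12.5 FPKM in that library and 3.98 to 5.39 FPKM in the other 3. KIF2A was spread over several, with ENST00000401507 the highest in the controls at 15.8 and 13.7 FPKM in the knockdown and 16.6 and 16.5 FPKM in the controls. In ENST00000401507 both knockdown libraries were below both controls. ENST00000514082 of KIF2A went the other way, with both above both controls, at 13.5 and 15.2 against 11.2 and 13.2 FPKM. At the level of whole genes, such a separation, in either direction, was seen for 35.9% of the 12136 tested. The share among transcripts was not counted, so no change in the split of KIF2A is read from these values. For the summed KIF2A gene the groups overlapped, as they did in the leading transcripts named here of KIF23, KIFC3 and KIF20B. KIF5B, KIF11, KIF14, KIF18A and KIF7 have 1 transcript each in the files.

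**Figure D4:**
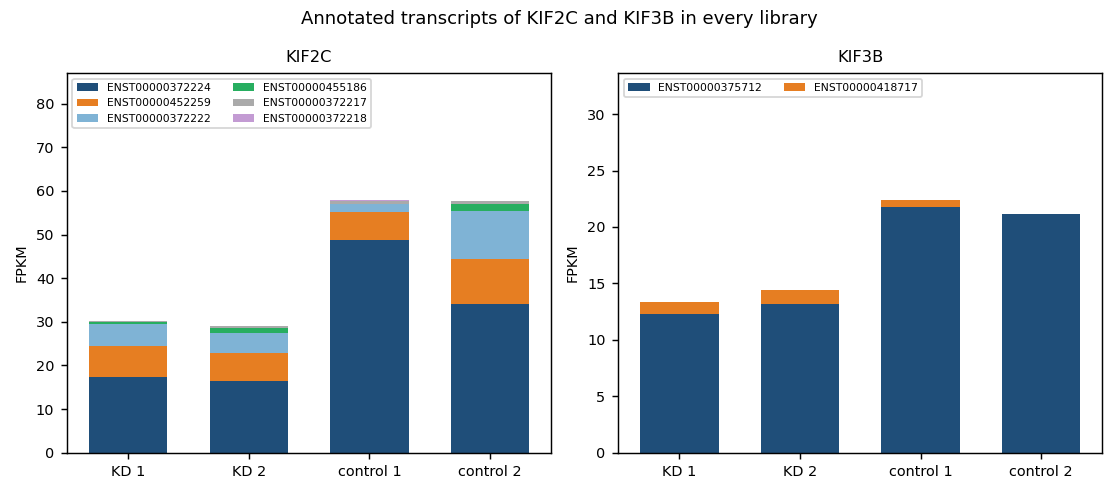
FPKM of the annotated transcripts of KIF2C (left) and KIF3B (right) in each library, stacked by transcript, for those above 0.3 FPKM in any library. ENST00000372224 of KIF2C stands at 17.4 and 16.4 FPKM in the knockdown and at 48.8 and 34.0 FPKM in the controls, and nearly all of KIF3B is ENST00000375712.

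The 3′ UTR of ENST00000372224 holds the 7-base word GAGACCT, a word picked with earlier results of these data known and shown here as a feature of the transcript that differed. In GENCODE 29 (GRCh38) the stretch lies at chr1:44767627-44767655 on the plus strand, with the word in capitals and its first base 459 bases after the stop codon of a 3′ UTR of 588 bases.
KIF2C: aaaatgtttctGAGACCTctttctacttt

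Of the 31 tested kinesins, 3 (9.68%) hold the word in an annotated 3′ UTR, against 15.8% of 11722 tested genes that could be searched. Besides KIF2C they are KIF13B, at 11.5 and 9.58 FPKM in the knockdown and 11.7 and 9.11 FPKM in the controls, and KIF7. KIF3B, with a 3′ UTR of up to 3692 bases, does not hold it. The transcripts of KIF13B (ENST00000522355 and ENST00000523968) and KIF7 (ENST00000445906) that carry the word are not among those the tables list. In KIF2C the word also stands in ENST00000372217, and ENST00000372222 and ENST00000452259 have no 3′ UTR in GENCODE 29 to search. The part of the word in the difference of KIF2C was not tested.

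The genes that work with the kinesins were read from the same fit. Of 28 tested spindle partners of mitotic kinesins, 2 were called lower and 0 higher with the replicate term, against 1.9% lower and 1.53% higher of all tested genes, and 0 without it; their median was -0.05. AURKB, the kinase that phosphorylates KIF2C at the centromere, had 45.1 and 36.3 FPKM in the knockdown, against 70.7 and 54.2 FPKM in the controls (log2 -0.60, standard error 0.18, limma adjusted p 0.628 without and 0.0176 with the replicate term). CLASP1, which promotes microtubule growth at kinetochores, had 16.7 and 13.8 FPKM against 23.9 and 20.7 FPKM (log2 -0.52, standard error 0.16, limma adjusted p 0.628 and 0.0403 in the same order). For both, the groups did not overlap, as in 35.9% of all tested genes. The ratio of KIF20A to AURKB was 1.17 and 1.82 in the knockdown and 0.866 and 1.08 in the controls.

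In the other lists 0 genes passed in either fit. The 19 tested light chains, adaptors and regulators had a median of -0.03, 8 above and 11 below 0. The 22 tested genes of dynein and dynactin, which move cargo the other way, had a median of -0.03, and all 22 differed by less than 1.2-fold. The smallest adjusted p with the replicate term was 0.140 and 0.157 in these lists. Of the kinesins outside the name pattern, CENPE, the kinetochore motor that brings chromosomes to the plate, had 37.5 and 59.4 FPKM in the knockdown and 34.0 and 52.3 FPKM in the controls, and STARD9 had 2.57 and 1.91 FPKM against 2.50 and 1.62 FPKM. Both were higher in the knockdown within each replicate, and the groups overlapped.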

How the data were processed

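RNA of 4 MDA-MB-231 libraries was sequenced after an RNeasy extraction and NEBNext Ultra preparation, per the labels' protocols. The deposited tables, 1 for each library, hold 81493 transcripts, and their values were read as FPKM from their form, as the headers give no unit. Per the submitters' processing notes, hg38, bcl2fastq 2.19 and HTSeq 0.8.0 were used; which program computed the FPKM is not given in the sources used. Loci in the files follow GRCh37, since 1 on chromosome 4 ends at 191013719, past the GRCh38 end. Strand is not stated, so overlapping genes cannot be told apart.

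The 81412 transcripts common to all tables were summed to 20137 genes. Genes at 1 FPKM in at least 2 libraries (12136) were fitted on log2(FPKM + 1) with limma-trend (limma 3.58.1, R 4.3.3), knockdown against control, threshold 0.05, without a replicate block; the replicate term is the replicate number as a block, and the deviations of same-numbered libraries from their group means correlated at 0.645. The script was tested on simulated data. Depth was estimated from single-transcript genes over 2000 bases and under 0.3 FPKM: 110 to 115 of 440 to 480 genes agreed within 2% on 1 depth, against 20 to 24 at the median other depth.

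The members and lists were chosen with earlier results of these data known. Members described with a difference, its standard error and adjusted p (for some given as a range) are those past the threshold in either fit, those over 0.25 in the same direction in both replicates, and 12 chosen by role. The word GAGACCT was taken from that earlier work, and supports nothing here. Alternatives were another pseudocount, filter, scaling, the block and leaving out each library.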

Additional observations from a re-analysis of the deposited data

How the results depend on the processing

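With 2 libraries a group, limma without the replicate block called 0 genes and 0 kinesins; with the replicate block it called 417 genes and 2 kinesins, KIF2C and KIF3B (log2 -0.94, adjusted p 0.00468, and -0.62, adjusted p 0.0315). With the block, median-of-ratios scaling gave 1169 genes, and settings added after seeing the data gave 1064 (upper-quartile scaling), 424 (filter at 5 FPKM), 287 (pseudocount of 0.1) and 0 (no filter on low values). The same 2 kinesins were called in each except the last, where they had adjusted p of 0.101 and 0.179. Without the block, a filter at 5 FPKM gave 1 gene, median-of-ratios scaling 2 and leaving out 1 library 6 to 15, with 0 kinesins in each. Leaving out a library, KIF2C lay between -0.97 and -0.92 and KIF3B between -0.67 and -0.57. The median of transport, ciliary and other kinesins ranged from -0.051 (without control replicate 2) to 0.11 (without control replicate 1), and was 0.01 without knockdown replicate 1. The median of mitotic kinesins ranged from -0.16 (without knockdown replicate 2) to -0.0088 (without control replicate 1), and was -0.029 without knockdown replicate 1.

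Of the 14 kinesins named by rule, 187 of 208 values under another setting kept direction and call. None but KIF2C and KIF3B was called under any setting, and the sign of 7 turned when 1 library was left out. KIF14 ranged from -0.14 to 0.068 (above 0 without knockdown replicate 1), KIF20A from -0.18 to 0.14 (above 0 without knockdown replicate 1 and, at 0.012, without control replicate 1), and KIF2A from -0.17 to 0.016 (above 0 without control replicate 2 and, at 0.012, without knockdown replicate 1). KIF18B ranged from -0.41 to 0.068 and KIF1C from -0.11 to 0.26, both turning without control replicate 1. KIF23 ranged from -0.023 to 0.069 (below 0 without control replicate 2 and, at -0.0056, without knockdown replicate 2), and KIF4A from -0.081 to 0.18 (below 0 without knockdown replicate 2 and, at -0.041, without control replicate 1). Others kept their sign but moved by over 1.5 times when 1 library was left out. KIF5B ranged from 0.074 (without control replicate 1) to 0.43 (without control replicate 2). KIF11 ranged from -0.40 to -0.11 and KIF18A from 0.052 to 0.27, each without knockdown replicate 2 and 1. KIF21B ranged from -0.45 to -0.18 and KIFC1 from -0.27 to -0.0012, each without control replicate 2 and 1. With a pseudocount of 0.1, KIF21B was at -0.498, both with and without the block. The cause was not tested. Members under 1 FPKM rest on few fragments and were not compared.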
